A study of Homo sapiens with 6 samples.

Results

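Carcinoembryonic antigen and its relatives on chromosome 19, CEACAM1, CEACAM5, CEACAM6, CEACAM7 and CEACAM19, and the epithelial cell adhesion molecule gene EPCAM on chromosome 2, were measured by RNA-seq in a gallbladder cancer line and a drug-resistant line derived from it. These 6 genes were taken by name from the 63140 genes of the deposited tables. The comparison asked how their transcripts differ between NOZ, an established human gallbladder cancer line, and NOZ-R, which was selected for gemcitabine resistance by raising the drug dose in steps. Gemcitabine is a nucleoside analogue used against biliary cancers. Each line had 3 libraries of poly-A RNA. The labels do not say whether NOZ-R is 1 clone, which doses were used, whether drug was present at harvest, or whether replicates were separate cultures. The p-values therefore reflect no more than the differences among libraries of a line, and these may be technical.

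CEACAM proteins are immunoglobulin-like molecules of the cell surface. CEACAM5, CEACAM6 and CEACAM7 are held in the membrane by a glycosylphosphatidylinositol (GPI) anchor, whereas CEACAM1 spans it and carries inhibitory tyrosine motifs that recruit the phosphatases SHP-1 and SHP-2. CEACAM5 is the carcinoembryonic antigen measured in serum as a marker of gastrointestinal tumours. EPCAM is a transmembrane glycoprotein of epithelia that joins neighbouring cells. Proteases can release an inner fragment of EPCAM that acts in the nucleus together with FHL2 and beta-catenin.

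The stretches upstream of the RefSeq start sites (GRCh38.p14) are shown because the 4 CEACAM genes matched there have related promoters, while only 2 of these genes were abundant. They run from 250 to 26 bases before the start for CEACAM5 (chr19:41708376-41708600, plus strand) and CEACAM6 (chr19:41755280-41755504, plus strand), and from 120 bases before it for CEACAM7 (chr19:41688296-41688390, minus strand) and CEACAM1 (chr19:42528507-42528601, minus strand). Capitals mark the E-box CACGTG in CEACAM5 and CEACAM6, and a match to the interferon response core, GAAA followed 2 bases later by GAAA, in CEACAM1.
CEACAM5: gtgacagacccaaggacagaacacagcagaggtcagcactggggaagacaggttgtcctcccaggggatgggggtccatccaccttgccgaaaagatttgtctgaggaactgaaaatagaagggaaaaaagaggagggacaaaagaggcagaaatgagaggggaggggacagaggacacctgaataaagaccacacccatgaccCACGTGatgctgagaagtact
CEACAM6: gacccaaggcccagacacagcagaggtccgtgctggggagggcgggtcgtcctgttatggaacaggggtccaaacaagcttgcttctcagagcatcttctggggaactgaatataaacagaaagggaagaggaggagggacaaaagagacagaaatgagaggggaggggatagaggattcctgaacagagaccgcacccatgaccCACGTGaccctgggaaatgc
CEACAM7: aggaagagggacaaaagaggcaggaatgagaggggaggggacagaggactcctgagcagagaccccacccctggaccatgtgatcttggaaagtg
CEACAM1: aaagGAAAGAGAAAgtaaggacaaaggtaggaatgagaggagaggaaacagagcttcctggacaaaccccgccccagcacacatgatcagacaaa
Of the bases shown, 16 (CEACAM5), 84 (CEACAM6), 72 (CEACAM7) and 3 (CEACAM1) lie in exons of GENCODE 29 transcripts that start earlier than the RefSeq ones.

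Over 250 bases, the CEACAM5 and CEACAM6 promoters were identical at 189 of 242 aligned bases (78.1%), and those of CEACAM5 and CEACAM7 at 84.0%. The E-box began 46 bases before the start in CEACAM5 and 45 in CEACAM6. E-boxes of this kind are known binding sites of the upstream stimulatory factors USF1 and USF2. The bases aligned to it read CATGTG in CEACAM7 and CACATG in CEACAM1. Searched on both strands, CACGTG occurred in 6.34% of the 35116 promoter windows of RefSeq genes and in 2 of these 4, the GC box GGGCGG in 42.6% of all and in CEACAM1 and CEACAM6, and the interferon response core in 3.02% of all and in CEACAM1. The cyclic AMP response element TGACGTCA occurred in 1.65% of all windows and in none of the 4. These are matches of letters, not measured binding sites. The 4 promoters are related in sequence, so their matches are not independent of each other. Whether the E-box bears on the transcript levels was not tested.

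Libraries held 14136037 to 19244923 counts each. Of the 14386 genes with enough counts to be tested, 4379 passed as higher in the resistant line and 4284 as lower (quasi-likelihood test of edgeR, Benjamini-Hochberg adjusted p below 0.05), and scaling by library size alone gave 3316 and 5468 and moved the median log2 fold change of all genes from -0.01 to -0.14. NOZ replicate 2 stood apart within its line, with a mean chi-square per gene of 10 and 8.84 against the other NOZ libraries, which differed from each other by 2.13. The epithelial keratins KRT19 (926.9 CPM in the parental and 891.0 CPM in the resistant line), KRT8 (949.2 and 1127 CPM), KRT7 (389.8 and 823.7 CPM) and KRT18 (247.7 and 384.9 CPM) were abundant in both lines, where CPM is the count scaled to a common library total and corrected for composition. KRT7, KRT8 and KRT18 passed as higher in the resistant line and KRT19 did not pass. The epithelial cadherin CDH1 was close to absent, at 1.03 and 0.290 CPM, and passed as lower. Granulocytes also carry CEACAM proteins, and of 8 granulocyte markers 6 had 0 counts in every library and the summed level was at most 0.332 CPM (parental) and 0.186 CPM (resistant). Summed levels of 4 leukocyte markers were 2.88 to 5.34 CPM for NOZ against 3.29 to 4.27 CPM for NOZ-R, with the defining marker PTPRC at 0.882 and 0.227 CPM. Those of 5 fibroblast markers were 2.75 to 3.32 CPM and 2.73 to 3.87 CPM.

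Of the 6 genes, 5 had enough counts to be tested. CEACAM5, CEACAM6 and EPCAM were lower in NOZ-R, CEACAM1 was higher by a small amount, and CEACAM19 did not pass. Among all genes tested, 60.2% passed in either direction, 29.8% as lower and 30.4% as higher, so a call alone does not set these genes apart. Genes that passed as lower with an estimate of at least 2-fold made up 7.57% of those tested and included CEACAM5 and CEACAM6. In bulk RNA, fewer cells that express a gene and less RNA per cell cannot be told apart.

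CEACAM5 (chromosome 19, 41708585 to 41729798, GENCODE 29 on GRCh38) showed the widest difference of the 6. Its level was 212.2, 203.5 and 213.9 CPM in NOZ replicates 1 to 3 and 21.9, 25.8 and 22.3 CPM in NOZ-R replicates 1 to 3. The lines were far apart, and within each line the libraries lay close together. The log2 fold change was -3.17 ± 0.0741 (SE), with a 95% interval of -3.33 to -3.01 (adjusted p = 6.35e-13 by edgeR), which leaves 11.1% of the NOZ level. Of the 14386 tested genes, 54 (0.375%) had a log2 fold change this low or lower. The deposited FPKM divides by gene length and, unlike CPM here, is not corrected for composition, so falls between the lines differ somewhat between the 2 scales. In FPKM, CEACAM5 went from 55.0 ± 1.38 to 5.59 ± 0.503 (SD over 3 libraries per line), from rank 658 to rank 5740 among the tested genes. Colonic epithelium is a main site of CEACAM5, and of 6 intestinal markers CDX2, FABP1, FABP2 and SI were at 0 in every library and VIL1 had at most 4 counts. The sixth, the keratin gene KRT20, fell from 148.2 CPM ± 4.63 to 39.8 CPM ± 0.194 (SD over 3 libraries per line, log2 fold change -1.90, adjusted p = 1.70e-11 by edgeR), so that the summed markers lay at 143.0 to 151.8 CPM in the parental and 39.8 to 40.0 CPM in the resistant libraries. Their part in the CEACAM5 result was not tested.

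CEACAM6 (chromosome 19, 41750977 to 41772208) is a GPI-anchored relative often overexpressed in carcinomas. It measured 529.6, 520.7 and 530.2 CPM in the NOZ libraries and 247.7, 257.6 and 259.1 CPM in the NOZ-R libraries. The NOZ-R libraries were close to each other and all far below the NOZ libraries, at 48.4% of their mean. The log2 fold change was -1.05 ± 0.0487 (SE), with a 95% interval of -1.15 to -0.94 (adjusted p = 6.57e-10 by edgeR). A test against a 2-fold change did not call it (adjusted p = 0.466 by edgeR). CEACAM6 remained abundant in NOZ-R, at 82.3 FPKM ± 1.65 against 186.0 FPKM ± 1.59 in NOZ (SD over 3 libraries per line), rank 373 against rank 120 of the tested genes.

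**Figure D1:**
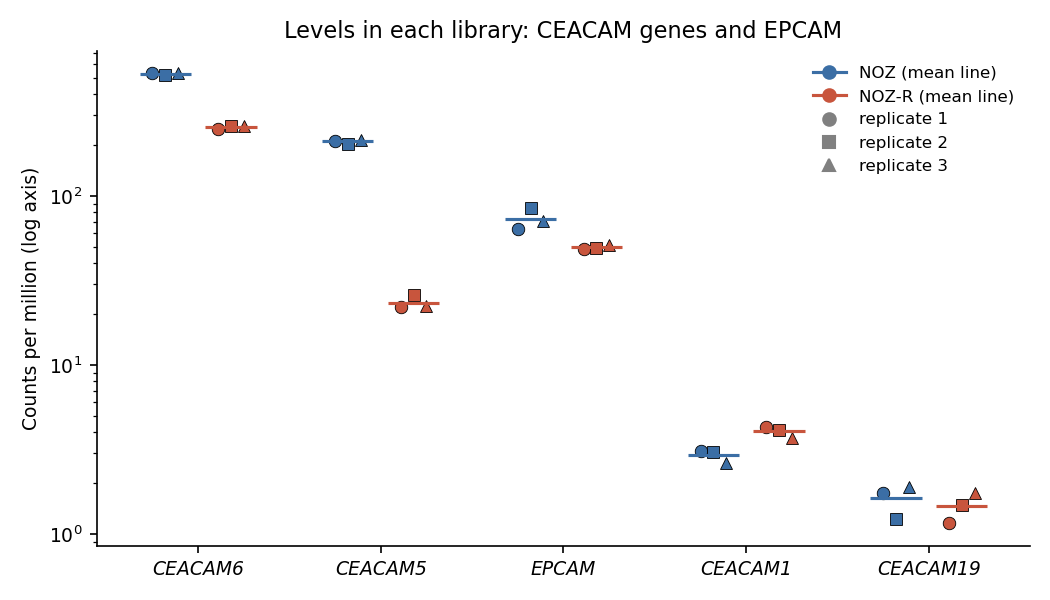
Levels in CPM on a log axis for CEACAM6, CEACAM5, EPCAM, CEACAM1 and CEACAM19 in the 3 NOZ libraries (blue) and the 3 NOZ-R libraries (red), with a line at each mean and a marker shape for each replicate number. CEACAM5 drops from about 209.9 to 23.3 CPM, EPCAM lies at 73.1 and 49.5 CPM, and the lines overlap for CEACAM19.

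The proportion of these 2 GPI-anchored transcripts differed between the lines in every library. In FPKM, CEACAM6 exceeded CEACAM5 by 3.36, 3.45 and 3.34 times in the NOZ libraries and by 15.2, 13.4 and 15.7 times in the NOZ-R libraries. The mean log2 ratio of CEACAM5 to CEACAM6 was -1.76 ± 0.0242 in NOZ and -3.88 ± 0.118 in NOZ-R (SD over 3 libraries per line), a difference of -2.12. The exact two-sided permutation test gave p = 0.10, which is the smallest p that 3 against 3 libraries allow (adjusted p = 0.10 over the 2 ratios computed), and the lines did not overlap. CEACAM5 and CEACAM6 together held 99.6% of the summed FPKM of the 12 numbered CEACAM genes in NOZ and 98.9% in NOZ-R, and that sum went from 242.0 ± 2.95 to 88.9 ± 1.90 FPKM (SD over 3 libraries per line).

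**Figure D2:**
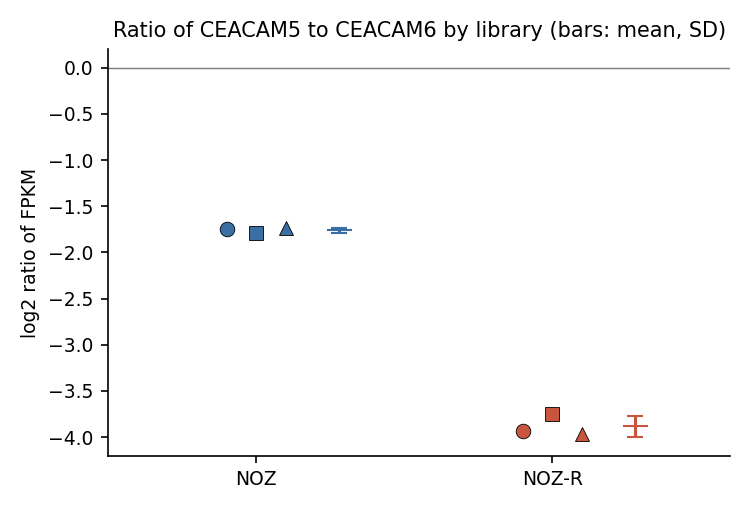
The log2 ratio of FPKM between CEACAM5 and CEACAM6 in each library, with the mean and SD beside the points. The ratio lies near -1.76 in NOZ and -3.88 in NOZ-R, and no library of one line reaches the other.

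Short reads can fit more than 1 of these genes. The coding sequences of CEACAM5 and CEACAM6 were identical at 90.9% of 1030 aligned bases, and the longest identical run covered bases 752 to 816 of both, shown because reads that fall inside it fit either gene.
Shared run of CEACAM5 and CEACAM6: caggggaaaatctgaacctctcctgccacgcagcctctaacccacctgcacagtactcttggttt
Of all windows of 50 bases in GENCODE 29 transcripts, 40 were common to CEACAM5 and CEACAM6, 1.15% of those of CEACAM5 and 1.33% of those of CEACAM6, and at 100 bases none was. The gene model AC243967.1, which overlaps both genes on the same strand, shared 12.6% of the 100-base windows of CEACAM5. It had 0 counts in every library. The antisense gene AC243967.2, which overlaps CEACAM6, had at most 4 counts in any library. The read length, and how reads that fit more than 1 gene were counted, were not given in the sources used here.

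CEACAM1 (chromosome 19, 42507304 to 42561234), the transmembrane member that also binds the immune receptor TIM-3, was a low-abundance transcript. The parental libraries held 62, 55 and 39 counts and the resistant ones 78, 67 and 55, or 3.10, 3.05 and 2.64 CPM against 4.31, 4.15 and 3.69 CPM. Every NOZ-R library was above every NOZ library, and such non-overlap, in either direction, held for 65.3% of the tested genes. The log2 fold change of 0.46 ± 0.174 (SE), with a 95% interval of 0.09 to 0.84, passed (adjusted p = 0.0336 by edgeR). The call was lost in 12 of 17 other settings, among them leaving out any 1 library other than NOZ-R replicate 3, with adjusted p from 0.0512 to 0.101 for those. The antisense gene LIPE-AS1 overlaps CEACAM1 and had 3 to 10 counts in NOZ and 2 to 5 in NOZ-R. No strand setting was given, so whether reads of the 2 genes were separated where they overlap is not known. CEACAM1 shared coding runs of up to 71 bases with CEACAM6 and 68 with CEACAM5. It shared 35 windows of 50 bases with CEACAM6 and 21 with CEACAM5, and at 100 bases none. CEACAM6 had 27837 counts summed over NOZ and 12503 over NOZ-R, against 156 and 200 for CEACAM1. Whether reads of these relatives were counted for CEACAM1 was not tested. The counts per gene do not separate the long and short cytoplasmic forms of CEACAM1.

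CEACAM19 (chromosome 19, 44662278 to 44684359), a less studied transmembrane relative, was counted 35, 22 and 28 times in the parental and 21, 24 and 26 times in the resistant libraries. The lines overlapped. Its log2 fold change was -0.15 ± 0.286 (SE), with a 95% interval of -0.77 to 0.47 (adjusted p = 0.669 by edgeR), with spread among libraries and counting error both inside that interval. CEACAM19 overlaps PVR, the poliovirus receptor gene, on the same strand, and 0.398% of its 100-base windows were shared with it. PVR rose, from 81.0 to 120.2 CPM, a log2 fold change of 0.57 (adjusted p = 1.99e-06 by edgeR). CEACAM7 (chromosome 19, 41673307 to 41706976), a gene of colonic epithelium, was counted 0, 1 and 1 times in the parental libraries and 0 times in all 3 resistant ones and was not tested. Both lines were under the floor of 3 counts per line, which corresponds to 0.0568 CPM (NOZ) and 0.0610 CPM (NOZ-R).

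**Figure D3:**
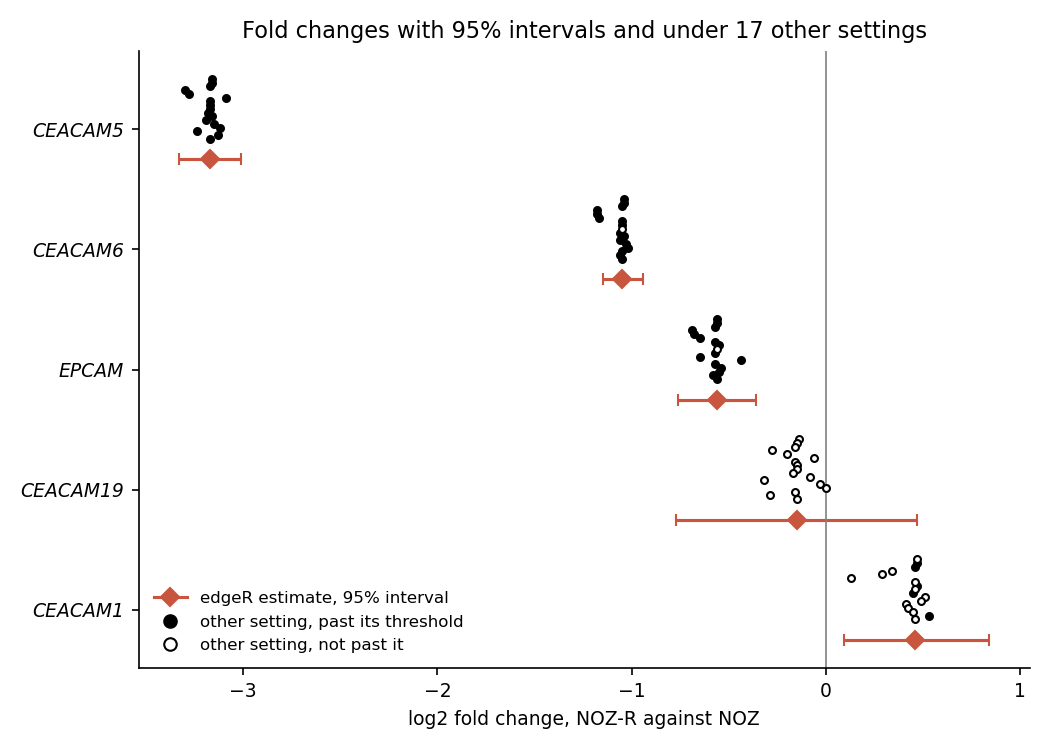
The log2 fold change of 5 of the 6 genes, NOZ-R against NOZ, with the 95% interval of the edgeR estimate (red diamonds) and the values under 17 other settings (circles, filled where past the threshold). CEACAM5 stays between -3.30 and -3.09, whereas most settings for CEACAM1 are open circles between 0.13 and 0.51.

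EPCAM (chromosome 2, 47345158 to 47387601) measured 63.7, 84.9 and 70.6 CPM in NOZ and 48.3, 48.9 and 51.4 CPM in NOZ-R. Every NOZ-R library was below every NOZ library, and NOZ replicate 2, the library that stood apart, was the highest. Non-overlap in either direction held for 65.3% of the tested genes. The EPCAM estimate and its test are as follows. EPCAM had a log2 fold change of -0.56 ± 0.0932 (SE), with a 95% interval of -0.76 to -0.36 (adjusted p = 0.000149 by edgeR). Without NOZ replicate 2 it was -0.44 (adjusted p = 7.18e-06 by edgeR). The summed level of 6 biliary epithelial markers was 2453 to 2930 CPM in the parental and 3405 to 3494 CPM in the resistant libraries. These markers did not move together: KRT7, KRT8 and KRT18 rose, with log2 fold changes of 1.08, 0.25 and 0.64, KRT19 and SOX9 did not pass (-0.06 and -0.07), and CDH1 fell by 1.83. Their part in the EPCAM result was not tested. In NOZ, EPCAM ranked 1250 among the tested genes by mean FPKM, and in NOZ-R it ranked 2033. The long noncoding RNA gene EPCAM-DT, annotated by RefSeq at 47192405 to 47345074, was singled out after its values were seen. It ends just before the GENCODE gene model of EPCAM, whereas the RefSeq model of EPCAM begins at 47369311. Counts were 36, 22 and 20 in the parental libraries against 12, 15 and 6, and its level fell by 1.12 (log2 units, SE 0.353, adjusted p = 0.0140 by edgeR). The call was lost without NOZ replicate 1 (adjusted p = 0.0751) or NOZ-R replicate 3 (adjusted p = 0.0643).

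The remaining CEACAM genes and the pregnancy-specific glycoprotein (PSG) genes of the same cluster were nearly silent. Of 18 such genes, 5 had 0 counts in every library and 1, PSG6, had enough to be tested, with 21, 18 and 16 parental against 20, 14 and 4 resistant counts (log2 fold change -0.44, adjusted p = 0.370 by edgeR). PSG1, which was not tested, was counted 19, 25 and 7 times in the parental libraries and 4, 1 and 2 times in the others. CEACAM3, CEACAM16, CEACAM21 and the pseudogene CEACAM22P had at most 5 counts in any library, and CEACAM4, CEACAM8, CEACAM18 and CEACAM20 had none. The PSG genes are near-identical to each other, so counts of single PSG genes are uncertain.

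The genes around CEACAM5 and CEACAM6 went both ways. From 500 kb before to 3500 kb after the CEACAM5 start, 70 other genes were tested, of which 22 were higher and 9 lower. Their median log2 fold change was 0.11, against a median of 0.08 for the 865 tested genes of chromosome 19. Of those 865 genes, 289 were higher and 181 (20.9%) lower. On chromosomes 2 and 1, 16.1% and 15.3% were lower. Over all 14386 tested genes, 30.4% were higher and 29.8% lower. Only 12536 of these had a GENCODE position, so the shares by chromosome and over all genes cover different sets. CEACAM5 had the lowest value in this window. Only CD79A, a B cell receptor component gene 104.9 kb beyond CEACAM6, and CEACAM5 lay below CEACAM6. CD79A fell from 7.31 CPM ± 2.17 to 2.20 CPM ± 0.380 (SD over 3 libraries per line), a log2 fold change of -1.74 (adjusted p = 2.76e-05 by edgeR). Among the nearest tested genes of CEACAM19, the Lutheran antigen gene BCAM rose by 0.93 in log2 units (adjusted p = 0.00209 by edgeR). Of the 6 tested genes nearest to EPCAM by GENCODE positions, among which EPCAM-DT, placed only by RefSeq, is not counted, 2 were higher and 2 lower, among them STPG4 at -2.59 (adjusted p = 0.000903 by edgeR), which had a mean of 1.17 CPM in NOZ. The STPG4 value was -3.60 without NOZ-R replicate 3, and a filter of 1 CPM in 3 libraries removed the gene. The median over the 844 tested genes of chromosome 2 was 0.19.

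**Figure D4:**
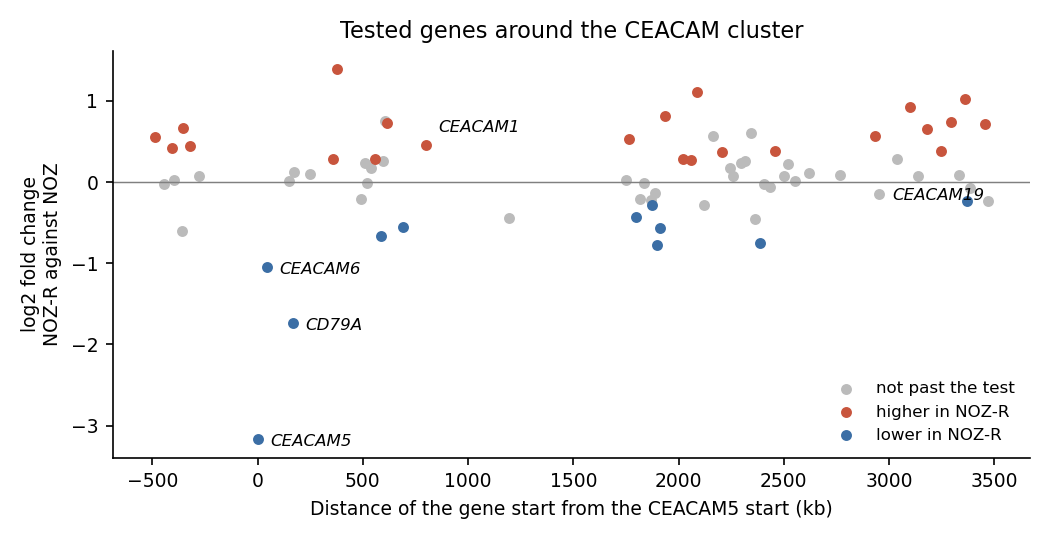
The log2 fold change of each tested gene (NOZ-R against NOZ) by the distance of its start from the CEACAM5 start in kb, coloured by edgeR call. CEACAM5 at -3.17, CD79A at -1.74 and CEACAM6 at -1.05 lie below the other points, which surround a median of 0.11.

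Genes that act with EPCAM mostly rose while EPCAM fell. Of 20 listed partners, proteases and targets, 18 were tested, 12 passed as higher, 4 as lower and 2 not at all. Over all tested genes, 30.4% passed as higher and 29.8% as lower. The list had a median log2 fold change of 0.49 against -0.01 over all tested genes. SPINT1, an inhibitor of the EPCAM-cleaving protease matriptase, rose by 1.18 (from 16.6 to 37.7 CPM, adjusted p = 9.65e-08 by edgeR). The sheddase ADAM17 rose by 0.78 (adjusted p = 6.51e-07 by edgeR). TSPAN8, a tetraspanin found in complexes with EPCAM, reached 302 counts summed over NOZ-R against 3 summed over NOZ. Scaled for library total and composition, the ratio of these sums was 108.2 (95% counting interval 36.7 to 527.8). All 3 parental TSPAN8 counts came from NOZ replicate 1, and without that library the fitted log2 fold change went from 6.59 to 9.66, a value that depends on the prior count because the remaining NOZ libraries are at 0. The lower genes were TCF7L2, a partner of beta-catenin (-0.86, from 125.0 to 68.8 CPM, adjusted p = 5.57e-08 by edgeR), the protease BACE1 (-0.70, adjusted p = 1.64e-05 by edgeR), the tetraspanin CD9 (-0.47, adjusted p = 3.06e-05 by edgeR) and the tight junction gene CLDN7, whose protein binds EPCAM (-0.40, adjusted p = 0.00704 by edgeR).

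Partners of CEACAM proteins went both ways. Of 17 listed genes, CEACAM1 included, 14 were tested, with 6 higher, 2 lower and 6 not past the test, and a median of 0.05. The shares over all tested genes were 60.2% in either direction, 30.4% higher and 29.8% lower. ITGA5, the fibronectin receptor subunit alpha 5, rose by 1.77 (from 103.6 to 353.0 CPM, adjusted p = 9.51e-11 by edgeR), and filamin FLNA, a cytoskeletal partner of CEACAM1, by 0.47 (adjusted p = 2.11e-05 by edgeR). The lower genes were the tyrosine kinases SRC (-0.83, adjusted p = 3.22e-06 by edgeR) and LYN (-0.68, adjusted p = 3.21e-05 by edgeR). PTPN6, which encodes SHP-1, was at 17.8 CPM ± 2.52 in the parental and 15.1 CPM ± 1.21 in the resistant line (SD over 3 libraries per line) and did not pass (adjusted p = 0.101 by edgeR), although 4 of 17 other settings called it lower, one of them without NOZ replicate 2 (adjusted p = 0.00984).

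Of 18 listed regulators of CEACAM transcription and splicing, 14 were tested, with 7 higher, 2 lower and 5 not past the test, and a median of 0.15. Among all tested genes, 60.2% passed in either direction, 30.4% as higher and 29.8% as lower. IRF1, an interferon-induced transcription factor, rose by 1.06 (from 12.9 to 15.3 CPM in the parental to 26.7 to 32.4 CPM in the resistant libraries, adjusted p = 1.07e-06 by edgeR), SMAD3, which carries TGF-beta signals, by 0.98 (adjusted p = 1.44e-09 by edgeR) and the epithelial factor KLF4 by 0.69 (adjusted p = 1.08e-06 by edgeR). The E-box factor USF1 rose from 28.1 CPM ± 3.8 to 37.6 CPM ± 0.460 (SD over 3 libraries per line), a log2 fold change of 0.42 (adjusted p = 0.00166 by edgeR). USF2 measured 81.6 CPM ± 5.64 and 72.8 CPM ± 2.68 (SD over 3 libraries per line) and did not pass (adjusted p = 0.0545 by edgeR), although 6 of 17 other settings called it lower. HNRNPA1, a splicing regulator of CEACAM1 with many processed pseudogenes that could share its reads, fell by 0.33 (adjusted p = 1.49e-05 by edgeR), and SP1, a GC box factor, fell by 0.19 (adjusted p = 0.0148 by edgeR). The SP1 call did not hold in 3 of 17 settings, including the one without NOZ-R replicate 1 (adjusted p = 0.0821). The intestinal factors CDX1 and CDX2 had 0 counts in every library.

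Genes of the machinery that builds and attaches GPI anchors went both ways, in shares close to those of all tested genes (30.4% higher and 29.8% lower). Of 33 listed genes, 31 were tested, with 10 higher, 10 lower and 11 not past the test, and a median of 0.00. PIGW rose by 0.83, PIGG by 0.74 and the remodelling enzyme PGAP3 by 0.66 (adjusted p = 2.16e-06, 6.12e-07 and 0.000699 by edgeR). PIGZ fell by 1.26, the inositol deacylase PGAP1 by 1.0 and DPM3, a subunit of the mannose donor synthase, by 0.98 (adjusted p = 0.00137, 2.25e-07 and 0.000490 by edgeR). Other surface and secreted antigens of gastrointestinal and biliary cancers gave 4 higher, 1 lower and 4 not past the test among 9 tested of 18 listed, with a median of 0.58. The mucin MUC1 rose by 1.34 (from 1.43 to 3.59 CPM, adjusted p = 0.000126 by edgeR) and CD24, whose reads may be shared with its pseudogene copies, by 1.31 (from 3.91 to 9.78 CPM, adjusted p = 2.21e-05 by edgeR), while the gel-forming mucin MUC5AC fell by 1.13 (from 81.4 to 37.1 CPM, adjusted p = 2.12e-08 by edgeR).

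**Figure D5:**
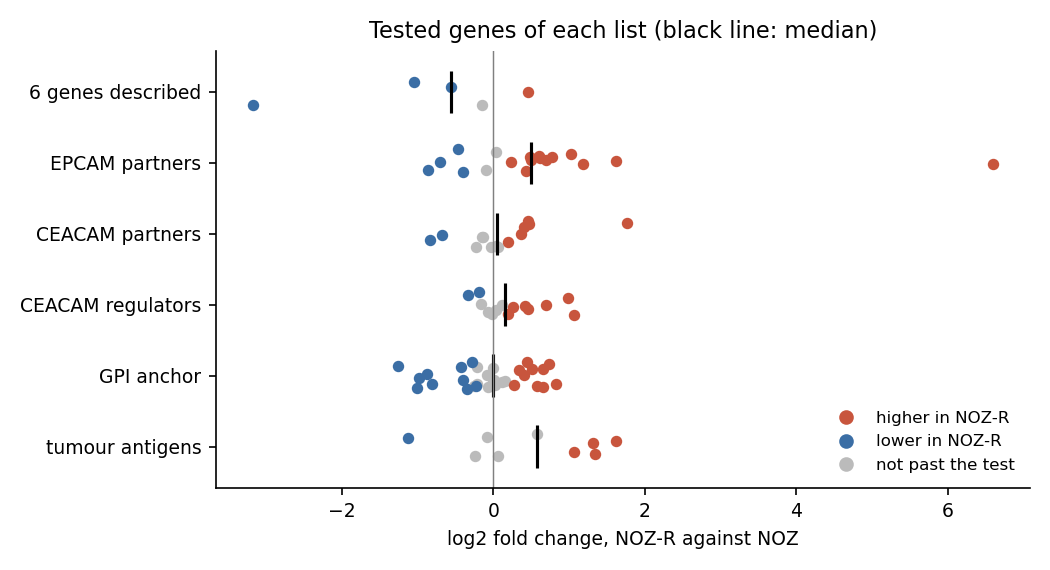
The log2 fold change (NOZ-R against NOZ) of each tested gene in 6 lists, coloured by edgeR call, with a black line at the list's median. The 5 tested CEACAM and EPCAM genes have a median of -0.56, the EPCAM partners 0.49 and the GPI anchor genes 0.00.

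The profile across the 6 libraries of CEACAM5, CEACAM6 and EPCAM was compared with 8944 genes of at least 10 CPM by Pearson's r of log2 CPM, as a description. Since the libraries form 2 lines, r measures mainly the difference between the lines, and it ignores the size of a change. For CEACAM5 the most similar genes were ESYT2, GSN, which encodes gelsolin, and the kinase gene WEE1 (r = 0.9999, 0.9999 and 0.9998), with log2 fold changes of -0.53, -0.77 and -1.04. For CEACAM6 they were CRACD, MORC4 and the exonuclease gene XRN2 (r = 0.9997, 0.9996 and 0.9996), with -3.20, -1.70 and -0.62. For EPCAM they were NPAT, SMC5 and PRPF39 (r = 0.9956, 0.9953 and 0.9951), with -0.74, -1.02 and -0.36. Like EPCAM, each of these was highest in NOZ replicate 2, the library that stood apart (77.6, 131.5 and 37.0 CPM). An r above 0.99 was shared by 408 genes for CEACAM5, 421 for CEACAM6 and 26 for EPCAM.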

How the data were processed

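The authors deposited whole-number counts per gene and FPKM values for 63140 genes in 3 NOZ and 3 NOZ-R libraries, which were grouped by their titles. The submitters' processing notes name fastp 0.22.0 and the build GRCh38; the aligner, counting tool, strand setting and annotation were not given in the sources used here. Each deposited FPKM is the count divided by the library total and 1 fixed gene length. Of the rows, 0 named no gene.

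Counts were filtered with filterByExpr, scaled by TMM (factors 0.954 to 1.05) and tested over 14386 genes with edgeR 4.0.16 in R 4.3.3 (glmQLFTest, Benjamini-Hochberg, threshold 0.05). The SE is the log2 fold change divided by the square root of F, and intervals use the fit's degrees of freedom. FPKM ratios were compared by exact permutation. Positions came from GENCODE 29, promoters from RefSeq, alignments from Biopython 1.88. The fitting code was tested on simulated data. Counting intervals and floors cover counting error only, because PCR copies are not told apart.

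The genes, lists and rules were chosen with earlier results of these data known. Named were the 6 genes, up to 3 non-overlapping increases and 3 decreases per list, untested cluster genes of at least 10 counts, the 3 nearest tested genes on each side and the 3 most similar profiles. EPCAM-DT, CLDN7, ADAM17, PTPN6, USF1, USF2 and KRT20 were added with values in view. A few results picked by this rule are not reported here. Other settings tried were scaling by library size only, by upper-quartile or by DESeq2 size factors; no filter on low counts; a filter of 1 CPM in 3 libraries; DESeq2 1.42.0, limma 3.58.1 on log2(FPKM + 1) and log2(FPKM + 0.1), a block for the replicate number; a stricter threshold (0.01); testing for more than a 2-fold change; and omitting each library in turn.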

Additional observations from a re-analysis of the deposited data

How the results depend on the processing

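CEACAM5 kept its direction and its call in all 17 settings (-3.30 to -3.09), and CEACAM6 (-1.18 to -1.02) and EPCAM (-0.69 to -0.44) in all except the test against a 2-fold change, where -1.05 and -0.56 had edgeR adjusted p = 0.466 and 1. That test called 847 genes higher and 442 lower. CEACAM1 lost its call with the DESeq2 Wald test (0.47, adjusted p = 0.0917), library size only (0.34, adjusted p = 0.111), limma on log2(FPKM + 0.1) (0.29, adjusted p = 0.0920) and log2(FPKM + 1) (0.13, adjusted p = 0.0631), no filter (0.46, adjusted p = 0.0791), a threshold of 0.01 (0.46) and the test against a 2-fold change (0.46), and ranged from 0.41 to 0.53 leaving out 1 library. The cause was not tested. CEACAM19 ranged from -0.32 to 0.00 leaving out 1 library and changed sign without NOZ-R replicate 1 (0.00, edgeR adjusted p = 0.994). The difference in log2 ratio of CEACAM5 to CEACAM6 stayed between -2.19 and -2.08. Library size only moved the median of all genes from -0.01 to -0.14. Same-numbered libraries did not visibly deviate together (r of 0.0682, -0.0224 and -0.0365). Weak correlation cannot show whether the numbers pair the libraries, and the labels state no pairing. With the replicate block, 4324 genes were higher and 4180 lower, and CEACAM1 (0.47), CEACAM5 (-3.17), CEACAM6 (-1.05), CEACAM19 (-0.15) and EPCAM (-0.55) kept their calls. The fewest counts among the tested genes of the 6 stood behind CEACAM1 (156 in NOZ and 200 in NOZ-R) and CEACAM19 (85 and 71).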
